A study of Mus musculus with 18 samples.

Results

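MYC binding was examined at 48 genes of nuclear transport, out of 21887 protein-coding genes on the chromosomes used. They comprise 4 genes of the Ran cycle, 23 carriers (7 exportins, 11 importins of the beta family and 5 of the alpha family) and 21 genes of the nuclear pore. The genes were listed by name. In each MYC peak list a gene was called bound when a peak summit lay within 1 kb of either end of its RefSeq span on mm10.

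ChIP-seq for MYC was carried out on liver tumours from FVB mice of 3 Arid1a genotypes, each with 3 MYC and 3 input libraries. The 9 MYC peak lists were analysed. Tumours labelled WT came from LAP-tta-Arid1aflfl;TRE-MYC mice aged about 55 days, Het tumours from LAP-tta-Arid1afl/+;Alb-cre;TRE-MYC mice of about 70 days, and Homo tumours from mice of about 100 days that carried Alb-cre and Arid1afl/fl beside LAP-tta and TRE-MYC. Every group thus carried the LAP-tta driver, the TRE-MYC transgene and at least 1 floxed Arid1a allele, and tumours arose once doxycycline was taken away. LAP directs the tetracycline transactivator, and Alb-cre the recombinase, to liver epithelium, whereas the other cells of the tissue are not targeted. The WT animals had no Cre, so in comparisons with WT, Cre, age and Arid1a genotype cannot be told apart. Het and Homo animals both carried Alb-cre, and between them age and genotype cannot be told apart. The labels do not say that replicates are different animals, and the spread between them may be technical.

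Proteins and RNA cross the nuclear envelope through pores built of nucleoporins. Importins bring cargo in, mostly with importin beta bound to an importin alpha adaptor, and exportins carry cargo out. The small GTPase Ran gives the direction: Rcc1 loads it with GTP on chromatin, and Rangap1 with Ranbp1 and Ranbp2 triggers hydrolysis on the cytoplasmic side. MYC binds DNA as a partner of MAX, with a preference for the E-box CACGTG, and Ran, tRNA export and importin genes are among the growth genes at which MYC is commonly found. The assay measures occupancy and not expression of these genes.

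Promoter windows are shown for the 3 members bound in at least 2 libraries whose window held a CACGTG, for Ranbp1, bound in 4 libraries with only a variant E-box in its window, and for Nup210, whose summits lay at a start site inside its span. Each runs 5′ to 3′ from 250 bases before to 50 after the RefSeq start site (GRCm38.p6), and the capitals mark CACGTG, or the variant CACGCG and its reverse complement CGCGTG.

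Xpot (chr10:121626283-121626582, minus strand): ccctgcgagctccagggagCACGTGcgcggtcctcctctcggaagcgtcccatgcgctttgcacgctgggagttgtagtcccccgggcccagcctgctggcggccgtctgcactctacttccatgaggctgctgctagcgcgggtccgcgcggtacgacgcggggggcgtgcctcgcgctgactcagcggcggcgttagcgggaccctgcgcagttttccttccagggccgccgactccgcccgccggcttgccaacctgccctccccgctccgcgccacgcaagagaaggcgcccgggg

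Ran (chr5:129019906-129020205, plus strand): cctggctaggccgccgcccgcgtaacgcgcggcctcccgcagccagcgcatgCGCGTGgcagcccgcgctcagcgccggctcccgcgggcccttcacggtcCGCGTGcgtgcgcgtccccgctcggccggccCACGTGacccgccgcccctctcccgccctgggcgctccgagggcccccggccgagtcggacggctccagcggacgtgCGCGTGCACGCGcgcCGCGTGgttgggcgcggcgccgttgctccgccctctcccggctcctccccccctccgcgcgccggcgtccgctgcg

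Ipo7 (chr7:110018065-110018364, plus strand): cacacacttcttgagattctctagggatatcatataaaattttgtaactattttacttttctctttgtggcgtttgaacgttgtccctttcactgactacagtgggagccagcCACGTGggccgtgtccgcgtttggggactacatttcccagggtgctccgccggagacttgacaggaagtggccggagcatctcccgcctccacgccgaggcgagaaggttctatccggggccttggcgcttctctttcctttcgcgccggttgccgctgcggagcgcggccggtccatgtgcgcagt

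Ranbp1 (chr16:18248645-18248944, minus strand): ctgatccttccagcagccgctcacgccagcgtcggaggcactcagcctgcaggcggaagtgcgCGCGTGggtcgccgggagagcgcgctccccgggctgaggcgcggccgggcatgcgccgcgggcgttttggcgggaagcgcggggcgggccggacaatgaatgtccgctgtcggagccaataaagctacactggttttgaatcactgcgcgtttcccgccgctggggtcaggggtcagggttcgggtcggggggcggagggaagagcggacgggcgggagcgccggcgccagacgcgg

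Nup210 (chr6:91116777-91117076, minus strand): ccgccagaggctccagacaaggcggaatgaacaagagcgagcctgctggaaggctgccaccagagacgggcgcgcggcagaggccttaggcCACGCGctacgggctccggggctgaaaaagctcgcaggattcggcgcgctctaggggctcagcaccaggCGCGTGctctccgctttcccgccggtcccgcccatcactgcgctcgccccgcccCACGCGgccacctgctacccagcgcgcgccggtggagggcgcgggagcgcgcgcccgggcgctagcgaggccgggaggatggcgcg

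Xpot, the exporter of tRNA, held 1 CACGTG, whose first base lay 231 bases before the start site (position -231), and the middle of this hexamer was 6 to 60 bp from the summits of 8 libraries. In Ran the CACGTG at position -118 lay 0 to 139 bp from the highest summit of each of 7 libraries, with a median of 16 bp. The window of Ran also held 5 copies of the variant, against at most 3 in the other windows of the members. Ipo7, an importer of ribosomal proteins among other cargo, had its CACGTG at position -137, which was 104 to 157 bp from its 5 summits. Over the 48 members, RefSeq promoter windows were given for 39 (46 windows, some genes having several). CACGTG, which reads the same on both strands, was in 19.6% of the member windows and in 7.84% of the 21263 windows of all protein-coding genes. Of the windows of genes with a peak in at least 2 libraries, members included, 18.9% held it. The variant, searched on both strands, was in 26.1% of member windows, 12.1% of all windows and 30.0% of those of bound genes. The median GC content was 64.5% in the member windows and 56.3% in all, and its part in these shares was not tested. Of the 23 members without a peak at a span end, 16 had windows, and 2 of these genes (Nup54 and Nup93) held CACGTG. That is 12.5%, against 7.12% of all protein-coding genes with a window and no peak at a span end. The variant was in 5 of the 16 (31.2%), against 10.3% of all such genes. Among the 5 was Nup210, which had summits at its start site in 5 libraries. Ipo9, Kpna4, Nup214 and Nup54 held the variant without a listed summit at their start sites. A match describes the letters only.

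WT replicate 1 and Homo replicate 2 stood apart from the rest: 15.2% and 17.6% of their peaks had a summit at a gene end, against 43.9% to 64.4% in the other 7 lists. The lists held between 51 peaks (Homo replicate 2) and 4291 (WT replicate 3), and 12 to 3090 genes had a peak at an end. The weakest listed peak had a −log10 p of 8.23 in WT replicate 1, 9.08 in Homo replicate 2 and 5.27 in WT replicate 3, so a gene without a listed peak may lie under a limit that differed between libraries. Input depth was 3.37 to 3.69 reads per kb in Homo, 3.63 to 4.34 in Het and 4.04 to 6.27 in WT. Each Homo input was thus shallower than each WT input. Depth of the MYC libraries overlapped, at 11.1 to 14.8 reads per kb in WT, 7.8 to 15.2 in Het and 8.6 to 12.4 in Homo. Of marker genes, 1 of 7 hepatocyte genes (Apoa1) had a peak, and 0 of 7 immune, 0 of 7 endothelial and stellate and 0 of 5 cholangiocyte genes. Peaks do not give levels of expression, so the labelled tissue could not be checked from these lists.

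A peak at an end was listed in at least 2 of the 9 libraries for 12 of the 48 members, compared with 8.03% of all protein-coding genes. By role, these were 3 of 4 Ran cycle genes, 6 of 23 carriers and 3 of 21 pore genes. In at least 4 libraries there were 6 members (Xpot, Ran, Rcc1, Ipo7, Ranbp1 and Kpnb1, against 3.03% of all genes), and no pore gene was among them. Xpot and Ran were listed in at least 7 libraries, as were 0.169% of all genes. The count of 12 became 8 without WT replicate 3 (5.14% of all genes). Xpo6, Kpna3, Nup62 and Nup205 then dropped out, and Nup153 was left as the only pore gene. Without Het replicate 1 the count was 9 (7.01% of all genes), with Xpo6, Kpna3 and Nup62 dropping out. Because the members were listed with earlier results of these data known, no p-value is given for any count over them.

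**Figure D1:**
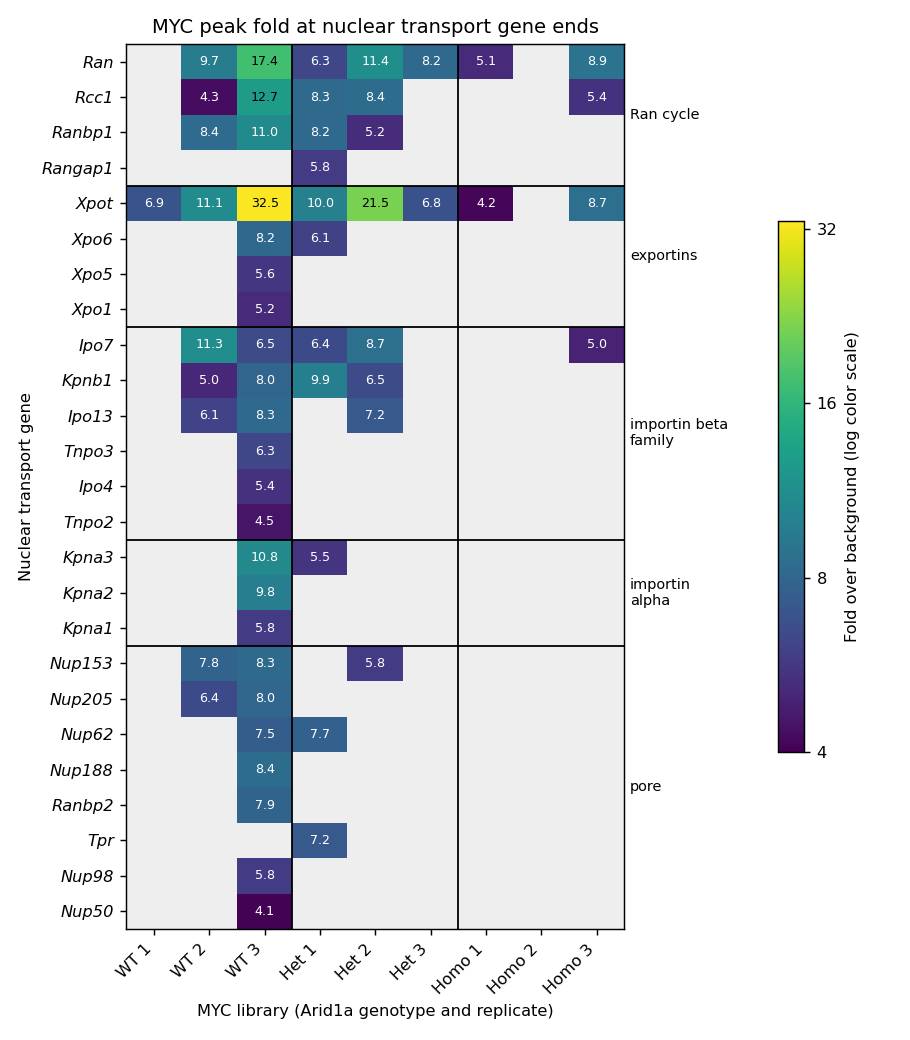
The authors' fold over background of the highest MYC peak within 1 kb of an end (color, log scale, value printed) for the 25 members with a peak in any library (rows, by role) in the 9 libraries (columns). Grey cells have no listed peak. Filled cells reach across most libraries for Xpot and Ran. The pore genes shown have none in the Homo libraries, where few genes of any kind were bound.

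In the Ran cycle, Ran itself had a peak in 7 libraries. Its fold over background, the authors' own value per peak, was 9.67 and 17.4 in WT replicates 2 and 3, then 6.26, 11.4 and 8.23 in Het replicates 1 to 3, and 5.13 and 8.93 in Homo replicates 1 and 3. WT replicate 1 and Homo replicate 2 had no peak there. Both listed WT values lay above both listed Homo values, and the Het values overlapped each of these. Ran spans bases 129020156 to 129024322 of chromosome 5, plus strand. The highest summit of each library lay 99 to 254 bp upstream of its start, where 51 to 125 reads were stacked. Het replicate 1 also had a lower summit, of fold 5.01, 331 bp downstream. Folds come from lists of different depth, so their order between libraries does not compare occupancy, and ranks were taken only within a list. Counted from the highest peak, Ran stood at 15.4% and 1.77% of the list in WT replicates 2 and 3, at 59.0%, 9.52% and 25.4% in Het replicates 1 to 3, and at 83.0% and 20.1% in Homo replicates 1 and 3. The ranks of Het and Homo thus spread widely, and Homo replicate 3 ranked Ran above Het replicates 1 and 3.

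Rcc1, the exchange factor that loads Ran with GTP, was listed in 5 libraries. Its fold was 4.28 and 12.7 in WT replicates 2 and 3, 8.29 and 8.40 in Het replicates 1 and 2, and 5.44 in Homo replicate 3. The WT values lay on either side of all the Het and Homo values. All 5 summits lay within 115 to 196 bp downstream of the start, in a window of 81 bp (chromosome 4, bases 132345554 to 132345635).

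Ranbp1, which helps to release Ran from exported complexes, was listed in 4 libraries and in no Homo library. Its highest fold was 8.37 and 11 in WT replicates 2 and 3 and 8.24 and 5.25 in Het replicates 1 and 2. Summits lay on both sides of the start, 159 to 193 bp upstream and 223 to 242 bp downstream. WT replicate 3 and Het replicate 1 had both summits, WT replicate 2 only the upstream and Het replicate 2 only the downstream one. The end of Trmt2a, a tRNA methyltransferase gene, lay within 1 kb of these summits, so the peak cannot be given to 1 of the 2 genes. Rangap1, the GTPase-activating protein of Ran, had a single peak of fold 5.77 in Het replicate 1, 947 bp inside its span and 68 bp from its RefSeq start site.

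**Figure D2:**
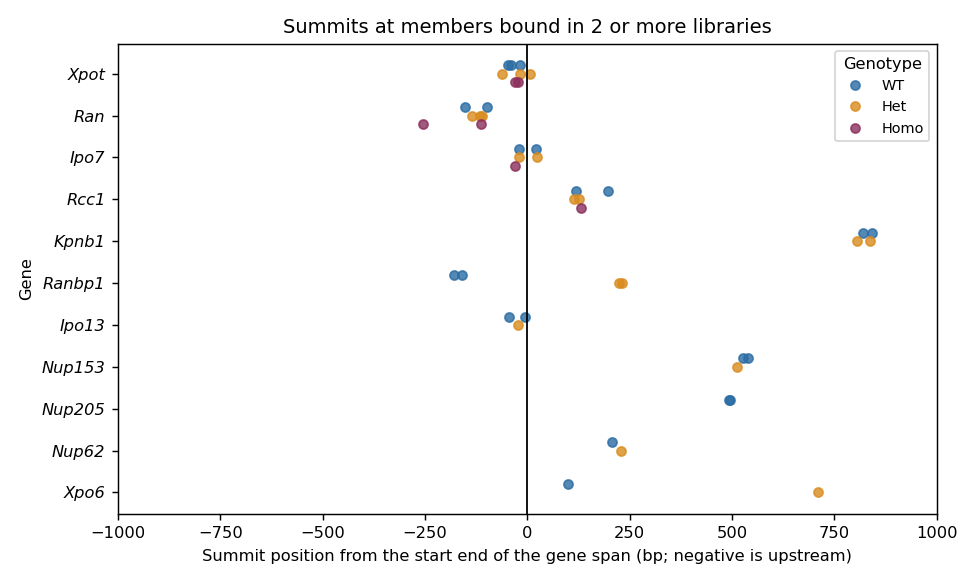
Position of the highest summit of each library (points, colored by genotype) from the start end of the gene span (bp, negative upstream), for the members bound in at least 2 libraries whose strand was given. Summits of different libraries lie within 68 bp of each other at Xpot and within 53 bp at Ipo7, while those of Kpnb1, Nup153 and Nup205 lie 493 to 842 bp downstream.

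Among exportins, Xpot was bound in 8 of the 9 libraries, more than any other member. Its fold was 6.91, 11.1 and 32.5 in WT replicates 1 to 3, 10, 21.5 and 6.80 in Het replicates 1 to 3, and 4.15 and 8.66 in Homo replicates 1 and 3. Only Homo replicate 2 lacked it, the library with the shortest list and no member bound. The range in Het and in Homo overlapped that in WT, whose lowest value lay below the higher Homo value. Counted from the highest peak, it stood at 80.4%, 8.62% and 0.0932% of the list in WT replicates 1 to 3, at 11.2%, 0.642% and 51.3% in Het replicates 1 to 3, and at 93.8% and 22.4% in Homo replicates 1 and 3. Low ranks were thus found in WT replicate 1 as well as in Homo replicate 1. The summits held 66 to 155 reads. They all lay within 68 bp of each other (chromosome 10, bases 121626500 to 121626568), at the start end of the span from 121587380 to 121626506 on the minus strand.

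The other exportins were bound in few libraries. Xpo6, the exporter of actin, had folds of 8.15 in WT replicate 3 and 6.09 in Het replicate 1, with summits 611 bp apart. Xpo1, the main exporter of proteins with a leucine-rich signal, had 1 peak of fold 5.17 in WT replicate 3, where 24 reads were stacked 638 bp upstream of the span. Xpo5, the exporter of microRNA precursors, had a fold of 5.58 in WT replicate 3, and the end of Polh lay within 1 kb of that summit. Cse1l, which returns importin alpha to the cytoplasm, Xpo4 and Xpo7 had no peak at an end.

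Of the importin beta family, 3 of 11 members were bound in at least 2 libraries. Ipo7 had folds of 11.3 and 6.50 in WT replicates 2 and 3, 6.43 and 8.71 in Het replicates 1 and 2, and 4.95 in Homo replicate 3. As listed, the Homo value was the lowest of the 5, and WT and Het overlapped. Within its list the peak ranked at 8.23% and 55.3% in WT replicates 2 and 3. In Het replicates 1 and 2 it stood at 55.7% and 25.5%, and in Homo replicate 3 at 84.8%. The summits fell between 30 bp upstream and 23 bp downstream of the start. Kpnb1, importin beta 1, had folds of 5.05 and 7.99 in WT replicates 2 and 3 and of 9.94 and 6.53 in Het replicates 1 and 2, and no peak in Homo. Its highest summits lay 806 to 842 bp downstream of the start in all 4 libraries. WT replicates 2 and 3 and Het replicate 2 also had a summit 675 to 732 bp upstream. In WT replicate 3 another summit lay only 76 bp upstream, at a fold of 7.71, near its highest of 7.99. Ipo13, a carrier that works in both directions, had folds of 6.12, 8.26 and 7.22 in WT replicates 2 and 3 and Het replicate 2. The summits of Ipo13 lay 5 to 46 bp upstream of the start.

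Tnpo2, Tnpo3 (the importer of splicing factors rich in serine and arginine) and Ipo4 had a peak in WT replicate 3 alone, at folds of 4.51, 6.26 and 5.41. Ipo5, Ipo8, Ipo9, Ipo11 and Tnpo1 had no peak at an end. Of the importin alpha genes, which recognise the classical import signal, Kpna3 had folds of 10.8 and 5.53 in WT replicate 3 and Het replicate 1. Kpna2 and Kpna1 had a peak only in WT replicate 3, at folds of 9.85 and 5.84. Kpna4 and Kpna6 had none. Single-library members came mostly from the longest list: of the 13 members bound in exactly 1 library (6.89% of all genes were), 11 were bound in WT replicate 3, and Rangap1 and Tpr in Het replicate 1.

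Of the 21 pore genes, 8 had a peak at an end in any library, as did 25 of all 48 members and 14.9% of all protein-coding genes. The 13 without one included Nup107, Nup133, Nup160, Nup37, Nup43 and Nup85 of the Y-shaped scaffold complex. In the basket, which faces the nucleus, Nup153 had folds of 7.80, 8.29 and 5.83 in WT replicates 2 and 3 and Het replicate 2, with summits 511 to 538 bp downstream of the start. Tpr, the filament of the basket, had a peak of fold 7.20 in Het replicate 1, near which Odr4 also has an end. Nup50, a basket protein that aids cargo release, had a peak of fold 4.06 in WT replicate 3, the lowest of the 60 member values.

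In the inner ring, Nup205 had folds of 6.40 and 8.01 in WT replicates 2 and 3. Their summits lay 1 bp apart, 493 and 494 bp inside the span. Nup188, its relative, had a fold of 8.42 in WT replicate 3, and 2 copies of CACGTG lay 27 and 69 bp from that summit. Nup35, Nup93 and Nup155 had no peak at an end. Of the nucleoporins with repeats that line the channel, Nup62 had folds of 7.47 in WT replicate 3 and 7.68 in Het replicate 1, and Nup98, whose precursor also yields a subunit of the Y-shaped complex, had 5.75 in WT replicate 3. Nup54 had none. On the cytoplasmic side Ranbp2 had a fold of 7.87 in WT replicate 3, whereas Nup88 and Nup214 had no peak. Nup62 shares its summits with ends of Atf5 and Il4i1b, Nup98 with Pgap2 and Nup188 with Dolk. In all, 7 of the 25 bound members, Ipo4 (with Tm9sf1) among them, had an end of another protein-coding gene within 1 kb of a summit. The share over all bound genes was not counted, so 7 of 25 does not set the members apart.

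Where the strand was given, 57 of 57 member peaks lay at the start end of the span, and 42 of them were within 250 bp of that end. Bound genes of any kind mostly kept a peak at the start end too. In WT replicate 3, counting start ends only left 2446 of 3090 bound genes and 21 of 23 bound members. Genes without a given strand drop out of that count. Within 250 bp of either end, 2064 genes and 18 members were left there. The depth behind single values was modest: the 60 member peaks had from 20 reads (Tnpo2) to 155 reads (Xpot in Het replicate 1) at the summit. Exact Poisson 95% intervals ran from 12.2 to 30.9 reads for the first and from 132 to 181 for the second. These intervals cover counting error only.

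**Figure D3:**
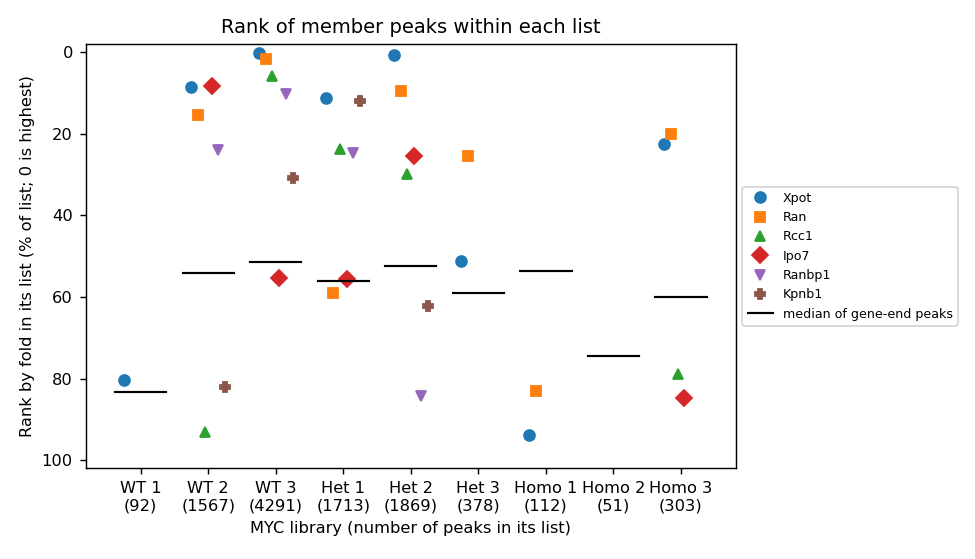
Rank by fold of the peaks of the 6 members bound in at least 4 libraries, as a percent of the list (0 is the highest peak), in each library with its number of peaks. Black lines mark the median rank of all gene-end peaks of that list. Xpot and Ran lie near the top in WT replicate 3 and Het replicate 2 and near the bottom in Homo replicate 1, with Xpot also low in WT replicate 1 (80.4%) and both at 20.1% to 22.4% in Homo replicate 3.

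The rank of member peaks differed from list to list. In WT replicate 3 the median member peak stood at 30.9% of the list, and the median gene-end peak at 51.4%. In WT replicate 2 these were 30.6% and 54.1%, in Het replicate 1 39.6% and 56.1%, and in Het replicate 2 39.5% and 52.4%. The 2 member peaks of Homo replicate 1 had a median of 88.4%, below that of gene-end peaks at 53.6%, and the 4 of Homo replicate 3 had 50.7% against 59.9%. The median member peak therefore ranked above the median gene-end peak in 7 of the 8 lists that held any, the exception being Homo replicate 1. In WT replicate 1 this rests on 1 member peak (80.4% against 83.2%), and in Het replicate 3 on 2 (38.3% against 59.0%). Only the highest summit of each member was ranked, whereas all summits at gene ends entered the other median, which favors the members.

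The study's design asks whether MYC occupancy changes with Arid1a dose. The number of members bound was 1, 9 and 23 in the WT libraries in replicate order, 11, 8 and 2 in Het, and 2, 0 and 4 in Homo. On average 11 ± 11.1 members (SD, n = 3) were bound per WT library, 7 ± 4.58 per Het library and 2 ± 2 per Homo library. The ranges overlapped, and WT replicate 1 had fewer bound members than 2 of the 3 Homo libraries. Without WT replicate 1 and Homo replicate 2 the means were 16 in WT and 3 in Homo. Without WT replicate 3 the WT mean was 5, and without Homo replicate 3 the Homo mean was 1. Lists also differed over all genes: 0.0731%, 4.86% and 14.1% of protein-coding genes were bound in the WT libraries, 5.58%, 6.14% and 0.854% in Het, and 0.324%, 0.0548% and 0.918% in Homo. The members made up 6.25%, 0.847% and 0.744% of the bound genes in the WT libraries, 0.901%, 0.596% and 1.07% in Het, and 2.82%, 0% and 1.99% in Homo. The values of WT replicate 1 and of Homo rest on 0 to 4 members each, and the genotypes overlapped. Low counts in Homo were thus a feature of all genes as well as of the members. Each Homo input was shallower than each WT input, and Cre and age differ too, so these cannot be told apart from genotype. Depth of the MYC libraries overlapped between WT and Homo.

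**Figure D4:**
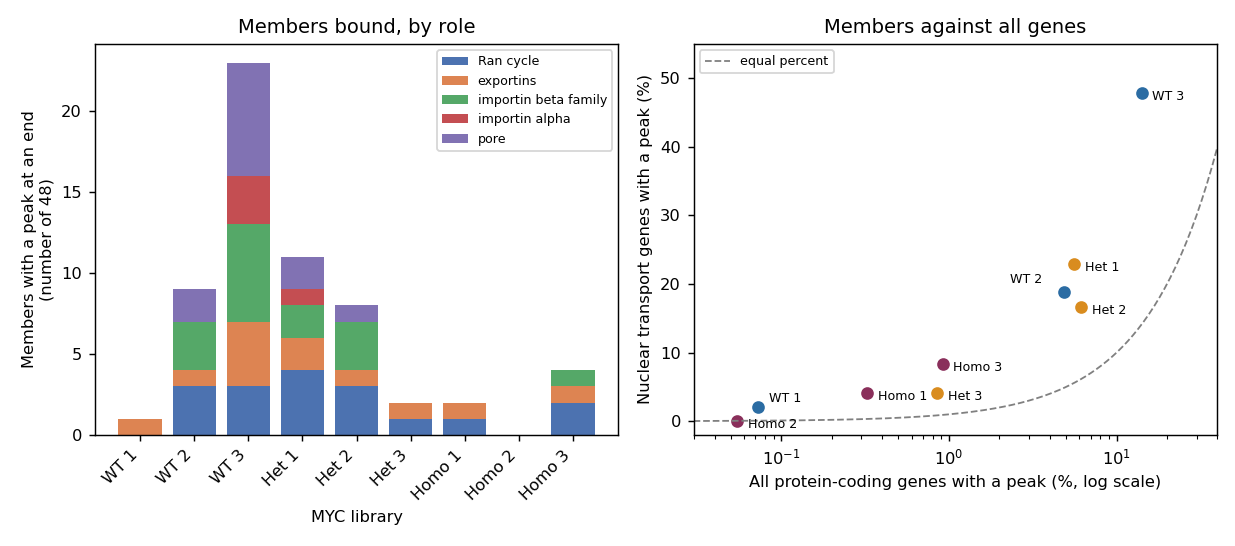
Left, number of the 48 members with a peak at an end in each library, stacked by role. Right, percent of members against percent of all protein-coding genes with a peak (log scale on the horizontal axis), 1 point per library, with the dashed line where both are equal. WT replicate 3 has 23 members and Homo replicate 2 has 0.

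By role, the few member peaks at span ends in the Homo libraries were at Ran cycle and carrier genes. In any WT library 3 of 4 Ran cycle genes, 13 of 23 carriers and 7 of 21 pore genes had a peak. In any Het library these were 4, 6 and 3, and in any Homo library 2 (Ran and Rcc1), 2 (Xpot and Ipo7) and 0. The 4 Homo members were all bound in WT and Het libraries as well, and 11 of the 13 Het members were bound in WT, the exceptions being Rangap1 and Tpr. Any WT library had a peak at 14.3% of all genes, any Het library at 7.85% and any Homo library at 1.03%. With so few genes bound in Homo, 0 of 21 pore genes does not set that role apart. Nup210 had a peak of fold 6.94 in Homo replicate 3 at a start site inside its span. Of pore genes outside the members, Seh1l was bound in 2 Homo libraries and Rae1 in 1.

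Between genotypes, 5 members (Ranbp1, Ipo13, Kpnb1, Nup153 and Nup205) had a peak in at least 2 of 3 WT libraries and in 0 of 3 Homo libraries, against 3.70% of all genes. In the opposite direction there were 0 members and 0.00% of all genes. Members had a peak more often than all genes in any WT library (47.9% against 14.3%). The same held in any Het (27.1% against 7.85%) and any Homo library (8.33% against 1.03%). A higher share of members by these rules therefore does not show that they lost peaks more often than other bound genes. The 5 rested on WT replicates 2 and 3: without either of them the count was 0. When reads were scaled down in every list to the depth of the shallowest input, with a −log10 p of at least 10 required, the rule was met by Ranbp1 and Ipo7 (2 members), and Ipo7 had not been among the 5. Ranbp1 and Kpnb1 were bound in at least 2 of 3 Het and 0 of 3 Homo libraries, compared with 3.04% of all genes. That count of 2 became 0 without Het replicate 1 or without Het replicate 2, and 4 without Homo replicate 3. Nup205 was bound in 2 WT and 0 Het libraries, as 0.649% of all genes were by that rule, and no member was bound in at least 2 Het and 0 WT libraries (0.0868% of all genes). The count of 1 for WT without Het became 0 without WT replicate 2 or 3, and 3 without Het replicate 2. No member was bound in 3 libraries of 1 genotype and in none of another (0.297% of all genes). With 3 libraries against 3, the smallest two-sided exact p that 1 gene can reach is 0.1, so none could pass a test.

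Conversely, 6 members (Ran, Ranbp1, Rcc1, Xpot, Ipo7 and Kpnb1) were bound in at least 2 WT and at least 2 Het libraries, against 2.94% of all genes. Xpot and Ran alone met this for WT and Homo, and for Het and Homo, each met by 0.238% of all genes. With reads scaled down and the same p limit the mean number of members bound was 5.67 in WT, 5.33 in Het and 0.667 in Homo, and Ran and Xpot had no peak left in Homo replicate 1. Over all genes the same setting left 10, 272 and 1215 bound genes in the WT libraries, 584, 973 and 130 in Het, and 55, 12 and 142 in Homo.

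The limit of 1 kb left out members with peaks further in. The listed summit nearest inside the limit was that of Rangap1 at 947 bp, and the nearest outside was that of Nup210 at 1410 bp. In 5 members without a peak at an end, a summit lay over 1 kb inside the span. They are named here after their values were seen. Nup210, the membrane nucleoporin, had such a peak in 5 libraries, with folds of 5.86 and 18.5 in WT replicates 2 and 3, 5.06 and 11 in Het replicates 1 and 2, and 6.94 in Homo replicate 3. Its summits lay from 86 bp upstream to 251 bp downstream of the RefSeq start site given for Nup210 (chromosome 6, base 91116826), which is inside the span. In the window printed above, the middle CGCGTG was 1 to 338 bp from the summits, with a median of 33 bp. Of the 21 pore genes among the members, none had a peak at a span end in as many libraries.

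Xpo7, another exportin, had a summit about 4 kb inside its span in 7 libraries, as many as Ran. Its folds there were 8.86 and 18.9 in WT replicates 2 and 3, 7.86, 5.72 and 7.27 in Het replicates 1 to 3, and 5.74 and 6.50 in Homo replicates 1 and 3. As listed, both WT values lay above all Het and Homo values there, which overlapped each other. The lists differ in depth, so the order of folds between them does not compare occupancy. WT replicate 1 had no listed peak there. Tnpo1, an importer of proteins that bind RNA, had a peak within 1 kb of a RefSeq start site inside its span in 3 libraries, at folds of 4.31, 10.7 and 8.94 in WT replicates 2 and 3 and Het replicate 1. Ipo5 had one at folds of 7.08 and 6.23 in WT replicate 3 and Het replicate 2. Xpo4 had summits inside its span in WT replicate 3 and Het replicate 1. When RefSeq start sites were counted beside span ends, an alternative added after the data were seen, 15 of 48 members were bound in at least 2 libraries, against 8.80% of all genes. The additions were Nup210, Tnpo1 and Ipo5, and 4 of 21 pore genes were then bound.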

How the data were processed

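Peaks were listed per MYC library, so the library is the replicate. Per the submitters' processing notes, the tools were MACS2 2.0.10.20131216, Bowtie2 2.2.3, HOMER and Picard, with mm10 as the build. For the peak threshold, no value is given in the sources used here. The deposited lists give the authors' fold over background (a ratio at the summit), −log10 p, −log10 q and an integer score derived from −log10 q. Folds were ranked within a list only. Where folds of several libraries stand side by side, they are the listed values and not on a common scale. Gene spans are those of RefSeq on GRCm38.p6 (mm10), and start sites, strand and sequences from RefSeq promoter windows of the same build.

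A member was bound when a summit lay within 1 kb of either span end, and the highest fold was kept where it had several. Summit reads and background were solved from fold and −log10 p, using the form of the MACS2 values, with 1 whole number of reads for 99.9% of the 10376 peaks. The lowest background of a list, divided by its shortest peak length, gave the input depth. The same background on the scale of the MYC reads gave the MYC depth. Thinning multiplied reads and background by 1 factor per library before p was recomputed. Gene-end assignment and read solving were tested on simulated data. Python 3.11.15, numpy 2.4.6, pandas 2.3.3, scipy 1.17.1 and matplotlib 3.10.9 were used.

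Members and lists were chosen with earlier results of these data known. Members were named by libraries bound: values in every library for 4 or more, and any Homo peak. The rule gave other bound members a range of fold, and their values are printed where there are few. Input libraries were not analysed here on their own. Alternatives covered peak limits, list length, window, counted positions, and libraries left out.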

Additional observations from a re-analysis of the deposited data

How the results depend on the processing

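Of the 130 values recomputed under alternatives, 110 stayed within 1.5 times the reported count or within 1 SD of the reported mean. That tally is a weak measure of stability, because some results could hardly leave these limits. The WT mean of 11 with an SD of 11.1 counted as unchanged in 14 of 14 alternatives, although its lowest value was 0.333. The count in Het but not WT was 0 in all 17. The number of members bound in at least 2 libraries (12) ran from 8 to 15 under the other peak limits, windows, counted positions and left-out libraries, and was 1 (Xpot) when each list was reduced to its 51 highest peaks, as many as the shortest list holds. With these short lists the mean number of members bound per library was 0.333 for both WT and Het and 0 for Homo, and the counts of members in WT but not Homo, Het but not Homo, and WT but not Het were all 0. There, absence means a lower rank. The count in WT but not Homo (5) was 2 after thinning and 2 within 250 bp, and 0 to 7 with libraries left out. The count in Het but not Homo (2) was 4 at a −log10 p of at least 10, 1 within 250 bp, and 0 to 4 with libraries left out. The count in WT but not Het (1) was 0 after thinning, 0 within 250 bp, and 0 to 3 with libraries left out. No paired analysis was possible because the results come from no test: the members were chosen with earlier results known, so no p is given for their counts, and the labels do not tie equal replicate numbers to a shared animal or batch. Input depth and the differing weakest listed p limit what an unlisted gene shows.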

Other observations

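Other nuclear transport genes, listed beside the members, were described by counts alone. Of 10 further pore genes, 4 were bound in 2 or more libraries. Seh1l, of the Y-shaped scaffold, was bound in 2 WT, 3 Het and 2 Homo libraries (folds 4.10 to 9.76), and Rae1, an adaptor of mRNA export, in 2 WT, 3 Het and 1 Homo library (folds 4.0 to 16.5). Nup58 was bound in 3 libraries and Ahctf1 in 2. Of 8 further Ran and carrier genes, Nutf2, the importer of Ran itself, was the only 1 bound in at least 2 libraries, with 1 WT and 2 Het. Of 20 RNA export genes, 4 were bound in at least 2 libraries. Ddx39b, an RNA helicase of mRNA export, was bound in 2 WT, 2 Het and 0 Homo libraries (folds 3.90 to 9.15), and Nmd3, the export adaptor of the large ribosomal subunit, in 1 WT, 2 Het and 1 Homo library (folds 6.30 to 9.80). Alyref and Thoc1 were bound in 2 each. By the same rule 8.03% of all protein-coding genes were bound. Genes bound in fewer than 4 libraries are named after their values were seen.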
